A study of Mus musculus with 12 samples.

Results

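The mRNAs of 8 genes that encode the scaffold of the postsynaptic density were read in 6 mouse RNA-seq libraries: Dlg4, Dlg2, Shank1, Shank2, Shank3, Homer1, Dlgap1 and Dlgap3. The genes were chosen by name, as representatives of the scaffold families, and all 8 were found among 55073 gene symbols with a listed transcript. The study asked what the RNA-binding protein Larp1 does in the brain. It compared posterior cortex of 3 male Larp1 cKO mice (Nestin-Cre with Larp1-flox/flox) with that of 3 male Larp1 WT mice (Nestin-Cre), on a C57BL/6J background, and both genotypes carry the Cre. Nestin-Cre acts in neural progenitors, so neurons and several kinds of glia are descended from cells that expressed it. The labels list 12 samples, 6 per genotype, while the files hold 1 library for each of 6 numbered mice, and the genotype of a numbered mouse is unknown here. No Larp1 cKO library could therefore be set against a Larp1 WT library, and every value is given for a numbered mouse, or as the lowest, median and highest of the 6, with no test. The age of the mice whose cortex RNA was sequenced is not stated.

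The postsynaptic density is the protein-rich disc under the membrane of an excitatory synapse. Its scaffold is built in layers. Membrane-associated guanylate kinases such as PSD-95 (Dlg4) and PSD-93 (Dlg2) hold glutamate receptors and ion channels at the membrane. SAPAP proteins (Dlgap1 and Dlgap3) bind the guanylate kinase domain of PSD-95, and Shank proteins bind SAPAP on one side and Homer on the other. Long Homer proteins assemble through a carboxy-terminal coiled coil and connect Shank with metabotropic glutamate receptors. Short Homer proteins such as Homer1a lack the coiled coil, are made after neuronal activity, and compete with the long forms for the same partners.

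All 8 genes are on the plus strand of GRCm38 (GENCODE M21): Dlg4 at chr11:70016942-70047522, Dlg2 at chr7:90476672-92449247, Shank1 at chr7:44310253-44360572, Shank2 at chr7:144001928-144424494, Shank3 at chr15:89499623-89560261, Homer1 at chr13:93299635-93405129, Dlgap1 at chr17:69969073-70821413 and Dlgap3 at chr4:127169204-127237022.

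Totals ran from 34689262 to 44463362 expected counts per library. The files do not state a tissue, and cortex is inferred from the labels. Marker mRNAs of excitatory cortical neurons were present in each library, with 8 of 8 detected and a summed TPM (a transcript's share of RNA after scaling for length) of 482 to 657. Of 8 hippocampal markers 6 were detected, with a summed TPM of 20.5 to 36.4, and the highest were Cpne9 (up to 18.1 TPM) and Calb2 (up to 12.2 TPM), while Dsp reached no more than 0.02 TPM. Striatal markers, all 8 detected, summed to 52.9 to 126 TPM. Nuclear protein-coding genes held only 22.7% to 28.8% of TPM, lowest in mouse 700 and highest in mouse 703, and this share moves with TPM values below. In bulk RNA, fewer neurons and less RNA per neuron cannot be told apart.

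Scaffold mRNAs were abundant and kept nearly the same order in every library. Dlg4, encoding PSD-95, was highest, with 226 TPM in mouse 678, 221 in mouse 687, 226 in mouse 688, 226 in mouse 698, 195 in mouse 700 and 272 in mouse 703. The 4 middle values lie close together, and mice 700 and 703 form the ends. Dlg4 stood at percentile 99.1 of median TPM among 15002 detected genes, which are those with at least 10 expected counts in every library. Its paralogue Dlg2, encoding PSD-93, had a lowest value of 51.6, a median of 62.4 and a highest of 72.9 TPM. Dlg4 exceeded Dlg2 by 3.39- to 3.78-fold within the 6 libraries, a ratio that varied by only 1.12-fold.

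The Shank genes, which encode the deepest layer of the scaffold, spanned a wider range of levels. Shank1 had a lowest value of 132, a median of 143 and a highest of 182 TPM. Shank3, whose loss in people causes Phelan-McDermid syndrome, had a lowest value of 30.3, a median of 35.7 and a highest of 44.9 TPM. Shank2 was the least abundant scaffold mRNA, with 27.52, 27.44, 36.00, 26.05, 25.36 and 39.88 TPM in mice 678, 687, 688, 698, 700 and 703. Mice 688 and 703 were high for Shank2, and the other 4 lay between 25.36 and 27.52 TPM. Within a library, Shank1 exceeded Shank3 by 3.97- to 4.56-fold and Shank2 by 4.55- to 5.39-fold.

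Both SAPAP genes lay between these extremes. Dlgap1 had a lowest value of 107, a median of 120 and a highest of 145 TPM. Dlgap3, which is prominent in striatum and whose deletion causes excessive grooming in mice, had a lowest value of 68.3, a median of 81.1 and a highest of 94.1 TPM. Dlgap1 exceeded Dlgap3 by 1.30-fold in mouse 687 and by 1.52- to 1.62-fold in the other 5. Striatal marker mRNAs summed to 120 TPM in mouse 687 and to 126 in mouse 703, against 52.9 to 87.7 in the other 4, and their part in the Dlgap3 values was not tested.

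Homer1 did not follow the libraries that were high or low for the other 7 genes. It had 80.66 TPM in mouse 678, 61.15 in mouse 687, 63.65 in mouse 688, 59.15 in mouse 698, 68.40 in mouse 700 and 65.24 in mouse 703. Mouse 678 was thus highest and mouse 698 lowest, whereas each of the other 7 genes was highest in mouse 703, and 6 of them were lowest in mouse 700 (Dlgap1 was lowest in mouse 687). Among all detected genes 53% were highest in mouse 703 and 49.1% lowest in mouse 700. The minimum count behind any of the 8 genes in any library was 6217.

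**Figure D1:**
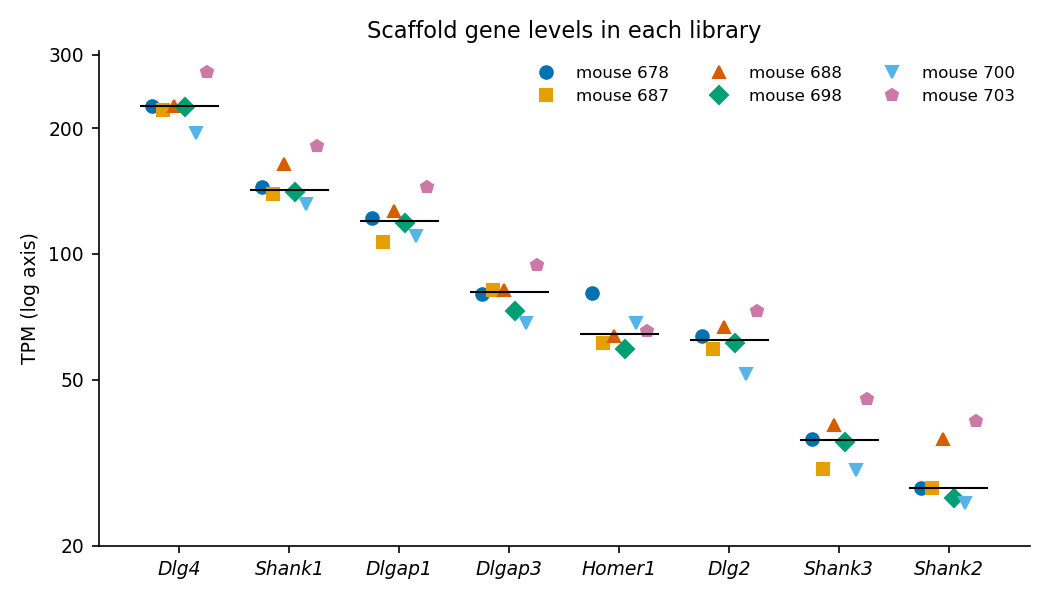
TPM (log axis) of the 8 scaffold genes in each of the 6 libraries, with symbols for mice and a black line at the gene's median. Genes are ordered by median from Dlg4 (226) to Shank2 (27.5), and mouse 703 is highest for all but Homer1.

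By median TPM the order was Dlg4, Shank1, Dlgap1, Dlgap3, Homer1, Dlg2, Shank3 and Shank2. Dlg4 exceeded Shank1, Shank1 exceeded Dlgap1, Dlgap1 exceeded Dlgap3, Dlg2 exceeded Shank3 and Shank3 exceeded Shank2 in 6 of 6 libraries. The middle of the order was not fixed. Dlgap3 exceeded Homer1 in 4 of 6 libraries, and Homer1 exceeded Dlg2 in 3 of 6. The ranges of Shank1 and Dlgap1, and those of Shank3 and Shank2, also overlapped across libraries, although within each library the order held. For Shank3 and Shank2 the margin was as small as 1.08-fold.

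Added together, the 8 mRNAs came to 781, 728, 804, 739, 681 and 916 TPM in mice 678, 687, 688, 698, 700 and 703, a ratio of highest to lowest of 1.34. Dlg4 alone made up 28.1% to 30.5% of the sum and Shank1 18.6% to 20.4%. Dlgap1 contributed 14.7% to 16.2%, Dlgap3 9.88% to 11.3%, Dlg2 7.57% to 8.31%, Shank3 4.21% to 4.91% and Shank2 3.52% to 4.47%. The least constant part was Homer1, with 10.3% in mouse 678 and 10.04% in mouse 700, against 7.12% to 8.40% in the other 4. As a ratio to Dlg4, Homer1 varied by 1.49-fold, from 0.239 in mouse 703 to 0.356 in mouse 678.

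In TPM, 1 of 8 scaffold genes, Shank2, had a highest library more than 1.5 times its lowest (1.57-fold), beside 47.6% of detected genes. The other 7 had ratios of 1.36 (Dlgap1 and Homer1) to 1.48 (Shank3), and the median over the 8 was 1.39 against 1.49 over all detected genes. The 690 genes with at least 6217 counts in every library, the lowest count of any scaffold gene, give a background of like depth: 27.4% of them passed 1.5-fold and their median ratio was 1.41. Without mouse 703, Shank2 no longer passed and the count was 0. Counting protein-coding transcripts alone, Dlg2 (1.51-fold), Shank2 (1.57-fold) and Shank3 (1.57-fold) passed, beside 46.9% of genes. By Dixon's ratio, which sets the gap at one end of 6 values against their range, none of the 8 had a library far from the rest in TPM, beside 7.03% of detected genes.

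**Figure D2:**
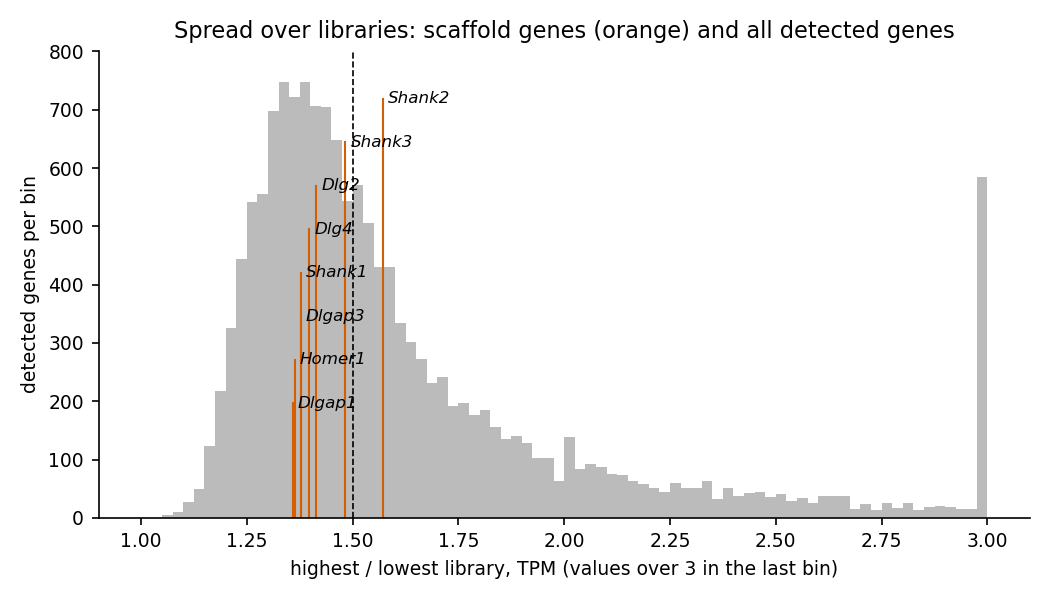
Histogram of the ratio of highest to lowest library in TPM for 15002 detected genes (grey), with the 8 scaffold genes as orange lines and the 1.5-fold threshold dashed. Only Shank2 lies beyond the threshold, and the line heights carry no value.

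The ratios depended on the scale. On TMM-scaled CPM (counts scaled by library totals that were adjusted by the trimmed mean of M-values) the ratios shrank to 1.09 for Dlg4, 1.13 for Dlgap1, 1.14 for Shank1, 1.16 for Shank3, 1.17 for Dlgap3 and 1.21 for Dlg2. Homer1 and Shank2 then stood out, at 1.48 and 1.43. On this scale 0 of 8 passed 1.5-fold, beside 28.2% of detected genes and 6.96% of the 690 genes of like depth (median ratio 1.20), and 2 of 8 were highest in mouse 703. When TPM was set relative to the total of nuclear protein-coding genes, 0 of 8 also passed, beside 33.9%. Shank2 was highest in mouse 688 (259 CPM) and mouse 703 (247 CPM), with 182 to 213 CPM in the other 4. Homer1 was highest in mouse 678 (260.0 CPM) and mouse 700 (252 CPM), with 175 to 212 CPM in the other 4 and the lowest value in mouse 703. For Homer1 the lowest library thus depended on the scale, being mouse 698 in TPM.

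**Figure D3:**
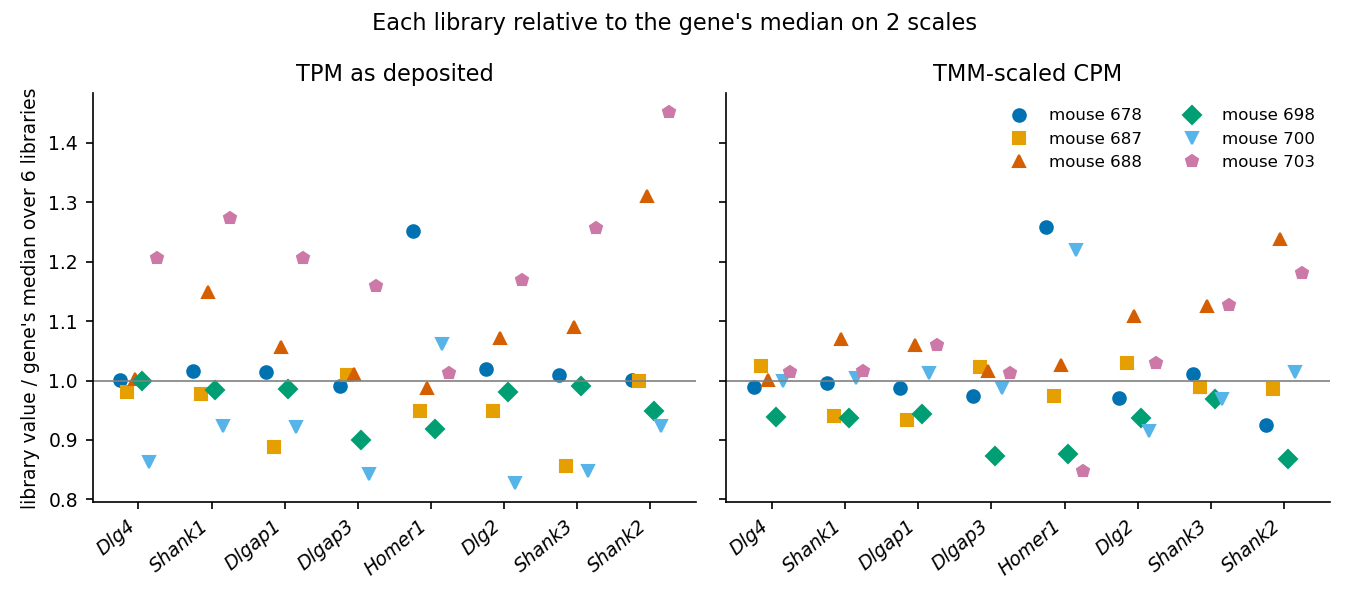
Each library's value divided by the gene's median over the 6 libraries, in TPM (left) and in TMM-scaled CPM (right), with symbols for mice. Mouse 703 lies above 1 for every gene in TPM, while in CPM the points draw together except for Homer1 and Shank2.

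A list of 21 other postsynaptic genes gave the wider setting. All 21 were detected, and 5 of them passed 1.5-fold in TPM, beside 47.6% of detected genes. Among the 5 were Lrrc7 (densin-180, 1.74-fold), Sipa1l1 (SPAR, a Rap GTPase-activating protein, 1.59-fold), Dlg3 (SAP102, 1.58-fold) and Iqsec2 (an Arf exchange factor, 1.58-fold). The median ratio of the list was 1.43. Dynll1 and Dynll2, dynein light chains that bind SAPAP, had the highest medians of the list, at 187 and 136 TPM, with ratios of 1.33 and 1.26. The 21 genes summed to 968 to 1303 TPM, highest in mouse 703 and lowest in mouse 700. Of all detected genes, 53% were highest in mouse 703 and 49.1% lowest in mouse 700, and this sum was not rescaled.

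The transcripts behind each gene were read from TPM per transcript, since the deposited isoform percentages are only 0 or 100. Dlg4 came mainly from Dlg4-203 (724 codons), at a median of 63.1% of the gene's TPM, with 15.3% on Dlg4-201 (664 codons), whose annotated start lies downstream. Dlg4-201 ranged from 12.7% to 22.5%, reaching its highest level, 50.8 TPM, in mouse 698. Dlg2 was carried by Dlg2-204 (852 codons) at 63.2%. Shank3-203 (1805 codons), which begins at the first annotated start of the gene, held 56.4% of Shank3 TPM. A further 14.5% fell on Shank3-208, annotated as a target of nonsense-mediated decay.

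Shank2 was divided between 2 distant starts. Shank2-205 (1262 codons, start at 144284439 on chromosome 7) held 42.1% and Shank2-202 (1472 codons, start at 144175529) held 36.4%, and 16.6% was on Shank2-201, which begins near Shank2-205. Shank2-202 had its highest value in mouse 703 (14.7 TPM) and its lowest in mouse 700 (8.77 TPM). Its share of Shank2 stayed between 34.6% and 37.9%, so both starts were high in the same libraries. Shank1 was led by Shank1-203 (2167 codons) at 49.0%. Shank1-202 (2159 codons) held 20.3% and varied by 2.01-fold, and Shank1-201 (2158 codons) held 12.7%. A retained-intron transcript, Shank1-206, held 15.5%. Dlgap1 was spread most widely: Dlgap1-211 held 29.1%, Dlgap1-209 held 18.1%, Dlgap1-214 held 13.2% and Dlgap1-206 held 12.4%. Dlgap1-214 (992 codons) encodes the longest protein of these, whereas the other 3 (666 to 692 codons) begin at a later start. Dlgap3 came mainly from Dlgap3-201 (977 codons) at 72.4%, with 13.6% on Dlgap3-202 (966 codons) and 10.3% on Dlgap3-203 (977 codons).

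**Figure D4:**
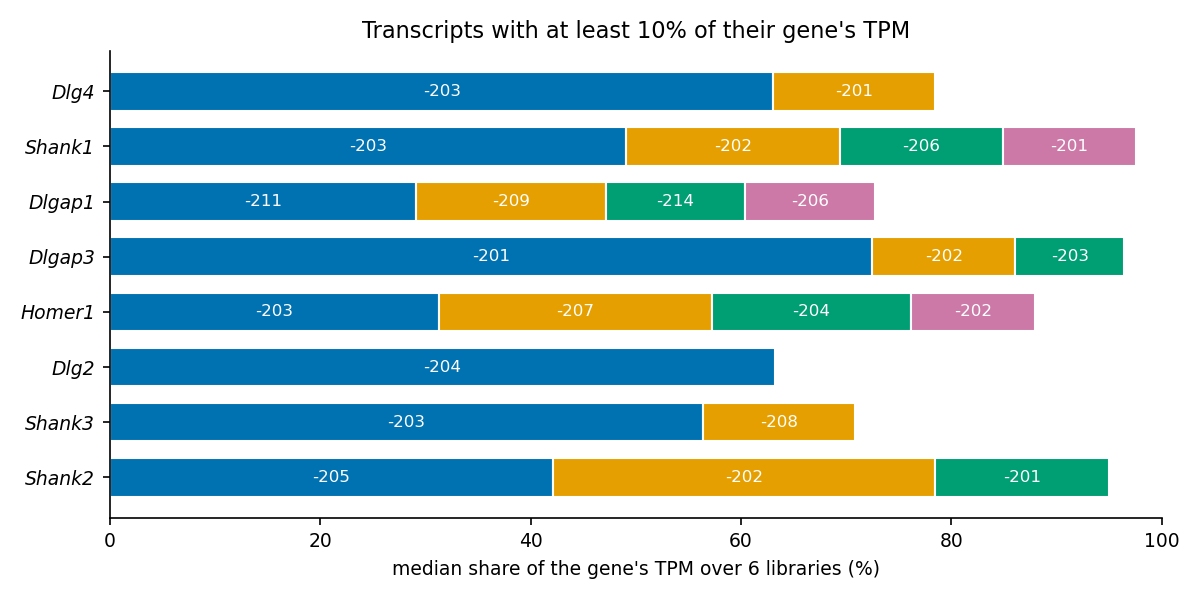
Median share of each gene's TPM over the 6 libraries (horizontal axis, %) for the transcripts that hold at least 10%, labelled by transcript number, with genes from the highest (top) to the lowest (bottom) median TPM. Dlgap3, Dlg2, Dlg4 and Shank3 each have 1 transcript above 50%, while Homer1, Dlgap1, Shank1 and Shank2 are divided.

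Homer1 transcripts encode long and short proteins. The forms part after a shared coding sequence, and the lines here show the point of divergence in the spliced coding sequence (GENCODE M21, GRCm38, plus strand of chromosome 13), with 18 shared bases in lower case and the bases that differ in capitals, up to the stop codon for the short forms and for 36 bases in the long form.
Homer1-203: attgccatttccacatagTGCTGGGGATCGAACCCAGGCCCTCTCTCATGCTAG
Homer1-204: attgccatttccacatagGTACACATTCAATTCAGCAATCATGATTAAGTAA
Homer1-207: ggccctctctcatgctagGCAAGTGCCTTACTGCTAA
Homer1-208: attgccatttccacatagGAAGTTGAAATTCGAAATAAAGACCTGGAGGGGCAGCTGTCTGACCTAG
Homer1-203 (366 codons) is a long form and is compared with Homer1-204. The capitals of Homer1-203 are its exon 6, 36 bases at 93386345 to 93386380. Homer1-204 (186 codons) is Homer1a: its exon 5 (93355940 to 93360462) runs on into the intron of the long form and ends the protein after a short tail. Homer1-207 (193 codons) contains the 36-base exon and then runs on into the next intron. Homer1-208 (191 codons) skips exons 6 to 9 of Homer1-203 and joins the last exon in another frame. Homer1-202 (370 codons) is a long form with another start codon and without the 36-base exon.

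Long forms, those of at least 250 codons, summed to 31.1, 30.6, 27.6, 25.4, 26.1 and 33.1 TPM in mice 678, 687, 688, 698, 700 and 703. They therefore varied by 1.30-fold and were highest in mouse 703 in TPM. Relative to the total of nuclear protein-coding genes they were highest in mouse 687, with mouse 703 in the middle. Short forms, which keep the start codon of Homer1-203 but have fewer than 250 codons, summed to 49.5, 30.4, 36.0, 33.8, 42.3 and 32.0 TPM in the same mice. Their ratio of highest to lowest was 1.63, and mice 678 and 700 were the high ones, also relative to the nuclear protein-coding total. Their share of Homer1 TPM was 61.4%, 49.7%, 56.6%, 57.1%, 61.8% and 49.1%, with a median of 56.8%.

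The main contributor by median TPM was Homer1-207. It had 25.9 TPM in mouse 678 and 22.6 in mouse 700 against 13.1 to 17.1 in the other 4, on 1037 to 2487 expected counts. Homer1-204, the Homer1a transcript, had 16.8, 10.3, 14.6, 10.6, 13.6 and 10.3 TPM in mice 678, 687, 688, 698, 700 and 703, on 1968 to 3881 expected counts. It was thus high in mice 678, 688 and 700. Its share of Homer1 was greatest in mouse 688 (22.9%) and least in mouse 703 (15.8%). Homer1-203 had 18.6 to 24.1 TPM, Homer1-202 had 6.26 to 9.01, and Homer1-208 had 4.43 to 7.68. Homer1-206 stayed at 0.71 to 1.52 TPM and Homer1-205 at no more than 0.48. Homer1-211 reached at most 0.60, and Homer1-201, Homer1-209 and Homer1-210 were listed at 0 in each library. Homer1-201 is the long form of 354 codons that otherwise equals Homer1-203 without its 36-base exon.

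How far the short forms were mature mRNA was not tested. The sequences that set Homer1-204 and Homer1-207 apart lie in introns of the long form, and in rRNA-depleted total RNA, reads of unspliced Homer1 RNA could be assigned to them. Transcripts annotated as retained introns held 1.26%, 1.09%, 1.08%, 1.17%, 1.11% and 1.24% of all TPM in mice 678, 687, 688, 698, 700 and 703. These shares were not set relative to the nuclear protein-coding total. That total held 26.1%, 24.5%, 24.4%, 25.5%, 22.7% and 28.8% of TPM in the same mice, so the order of the mice depends on the scale. Oligodendrocyte markers, 8 of 8 detected, summed to 805 TPM in mouse 678, 769 in mouse 698 and 672 in mouse 700, against 502 to 543 in the rest. Mouse 698, not high for the short forms, thus exceeded mouse 700. The part of these markers in the Homer1 values was not tested.

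Homer1a is an immediate early transcript, so the 12 genes of an immediate early list were read beside it. They summed to 294, 264, 722, 296, 305 and 206 TPM in mice 678, 687, 688, 698, 700 and 703. Mouse 688 stood far above the rest, and 12 of 12 genes were highest there. The share of all detected genes highest in mouse 688 was not counted, while 53% were highest in mouse 703. Egr1, a zinc-finger transcription factor, had 202 TPM in mouse 688 against 94.9 to 118 in the other 5. Arc, which acts in receptor endocytosis at the synapse, had 150.4 TPM against 28.7 to 73.1. Mouse 688 also had the greatest Homer1-204 share, and mouse 703 had the least of both. The top mouse depended on the denominator. As a ratio to the long forms, Homer1-204 had 0.541, 0.335, 0.529, 0.419, 0.520 and 0.311 in mice 678, 687, 688, 698, 700 and 703, highest in mouse 678. Mouse 678, with the most Homer1-204 by TPM, had a sum close to the median of 295 for the immediate early list.

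**Figure D5:**
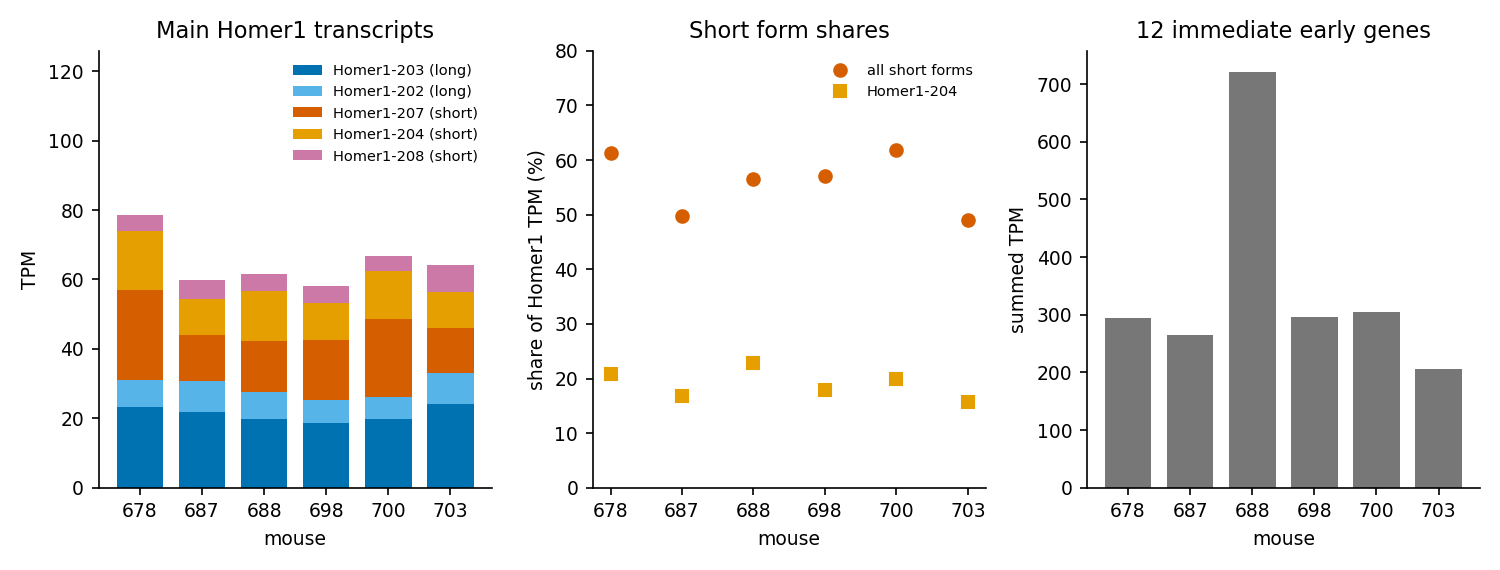
Left, stacked TPM of the 5 main Homer1 transcripts in each library (long forms in blue). Middle, the share of Homer1 TPM on all short forms and on Homer1-204 alone (%). Right, summed TPM of 12 immediate early genes. Short forms are high in mice 678 and 700, while the immediate early sum is high in mouse 688.

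Homer1-207 begins at the start that RefSeq also annotates at 93303757, the more 5′ of its 2 Homer1 starts. The 250 bases before this start (RefSeq, GRCm38.p6, chr13:93303507-93303756, plus strand) are shown because Homer1-207, the short form of highest median TPM, is annotated from here. Homer1-204, with 1968 to 3881 expected counts against 1037 to 2487 for Homer1-207, starts at 93304495, and Homer1-206 starts at 93304102. Capitals mark TGACG, the core of the site bound by CREB-family factors, searched on both strands (TGACG or CGTCA).
Homer1 upstream window: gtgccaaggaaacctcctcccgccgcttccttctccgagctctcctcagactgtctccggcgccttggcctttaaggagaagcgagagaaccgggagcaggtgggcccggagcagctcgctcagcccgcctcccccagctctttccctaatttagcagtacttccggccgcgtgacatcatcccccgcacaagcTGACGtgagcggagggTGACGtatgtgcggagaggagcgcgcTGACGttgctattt
The core occurs 3 times, beginning at -56, -40 and -14 from the start, and the 3 do not overlap. The full site TGACGTCA is not in this window. Promoter windows of 300 bases were matched for 6 of the 8 scaffold genes, 12 windows in all. TGACG occurred in 2 of them (1 of Homer1 and 1 of Dlg4) and in 20.8% of all 32851 mouse windows. TGACGTCA occurred in 0 of the 12 and in 1.79% of all windows.

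Larp1 binds mRNAs that begin with a 5′ terminal oligopyrimidine (TOP) motif, a C at the first base followed by an unbroken run of C and T. The first 20 bases of the transcript with the highest median TPM of each scaffold gene (GENCODE M21, GRCm38) are shown because they decide whether the motif is annotated, with the longest run of C and T in capitals.
Dlg4-203: CTCCTCTCTCCCCTTCCCTC
Dlg2-204: agtgaTTTaaaatgctagaa
Shank1-203: ggcagtggaggcgCCgaccg
Shank2-205: ggggagagggagggaggggg
Shank3-203: CCggggccgatgcagctaaa
Homer1-203: Cgtaagggaggcagtagcat
Dlgap1-211: agacaggaTCgaggaagcca
Dlgap3-201: cggccgCTCagcactcgctc
By the rule of a C followed by at least 4 pyrimidines, 1 of the 8 began with a TOP motif, beside 2.35% of 13618 detected nuclear protein-coding genes. The exception was Dlg4-203, which starts at 70018444 on chromosome 11 with a C followed by 22 pyrimidines. Homer1-203, Shank3-203 and Dlgap3-201 begin with C but have 0, 1 and 0 pyrimidines after it, and the other 4 begin with a purine. Allowing any annotated isoform also gave only Dlg4 (2 of its 22 transcripts), beside 10.7% of genes. The start of Dlg4-203 comes from annotation and was not measured here. RefSeq places no Dlg4 start at that base, and its nearest lies 161 bases downstream. Dlg4-203 itself had 125 TPM in mouse 700 and 162 in mouse 703, the extremes among the 6 libraries, a ratio of 1.29.

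Genes with the pattern most like that of Homer1 and of Shank2 over the 6 libraries were found by the root mean square difference of log2(TPM + 1) after subtracting each gene's median. Among 14994 detected genes outside the scaffold list, those nearest to Homer1 were Cd300a (0.037), Lrrk2 (0.044) and Rnf121 (0.046). Cd300a had a median of only 0.245 TPM, where adding 1 flattens the pattern. Lrrk2, a kinase, had 9.86 TPM in mouse 678 and 7.27 to 8.95 in the other 5. Nearest to Shank2 were Dusp18 (0.021), Robo1 (0.057) and Neto1 (0.058). Dusp18 had 8.05 and 9.35 TPM in mice 688 and 703, against 5.48 to 6.15 in the other 4. Neto1, an auxiliary subunit of kainate receptors, had 19.1 and 18.5 TPM in mice 688 and 703, against 12.6 to 13.9 in the other 4. Of the scaffold genes, Shank1 was the nearest to Shank2 (0.105) and Homer1 the farthest (0.305). The median difference over all genes was 0.254 from Shank2 and 0.214 from Homer1.

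Few annotated exons of other genes lie over the scaffold genes. The greatest overlap was with 1700008O03Rik on the opposite strand of Shank1, at 3.22% of exon bases, and it had at most 0.88 TPM. Whether the counting used strand is not stated.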

How the data were processed

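The tools named by the submitters for the rRNA-depleted cortex RNA are cutadapt for trimming, STAR for alignment to mm10, and RSEM for quantification, with no version stated. The authors deposited expected counts, TPM and an isoform percent for each of 142351 transcripts in 6 libraries, and 18 value columns were used and 12 were not. The isoform percent deposited is 0 or 100, because the gene identifier repeats that of the transcript, so shares were computed from TPM. Transcripts were matched to GENCODE M21 (99.4%), summed per gene, and expected counts were rounded. Scale factors came from TMM (edgeR 4.0.16) and DESeq2 1.42.0 on genes with at least 10 counts in every library, in R 4.3.3. No test was run, as 0 columns are tied to a labelled sample. Named genes were all 8 scaffold genes, the 2 most abundant of 21 other postsynaptic genes and those past 1.5-fold, the 2 most abundant immediate early genes, the 3 nearest in pattern to Homer1 and to Shank2, and transcripts with at least 10% of their gene, with each protein-coding Homer1 transcript. A gene that this rule names is not reported here. The marker lists were of neurons, of striatum and hippocampus, and of glial and endothelial cells. Genes named only as the subject of a limit were chosen after their values were seen. Members and lists were chosen with earlier results of these data known. The ratio, Dixon's ratio and pattern measures were tested on simulated data. The simulated counts held planted changes and sampling noise only, so they did not cover spread between mice or shifts of a whole library.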

Additional observations from a re-analysis of the deposited data

Results flagged for a closer look

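Of 106 sets of 6 values examined, 7 held a library far from the others by Dixon's ratio (above its 95% limit for 6 values), and chance sets apart about 1 in 20. Among detected genes 7.03% had such a library in TPM. Dlgap3 made up 11.3% of the scaffold sum in mouse 687, against 9.88% to 10.3% in the other 5. The immediate early genes summed to 722 TPM in mouse 688, against 206 to 305 in the other 5. Dlgap1-214 had 22.2 TPM in mouse 703, against 14.4 to 16.8 in the other 5, and its share of Dlgap1 was 15.3% there against 12.6% to 13.5%. Homer1-208 had 7.68 TPM in mouse 703, against 4.43 to 5.34 in the other 5, on only 113 to 172 expected counts. Baiap2, encoding IRSp53, had 72.5 TPM in mouse 703, against 50.2 to 52.5 in the other 5. Sipa1l1 had 77.9 TPM in mouse 703, against 48.8 to 58.3 in the other 5. The TPM values flagged in mouse 703 were not rescaled. In TPM 53% of detected genes were highest in that mouse, which also had the greatest nuclear protein-coding share (28.8%).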

How the results depend on the processing

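The number of scaffold genes past 1.5-fold, 1 in TPM, was 0 with TMM-scaled CPM, 0 with DESeq2 size factors and 0 with TPM rescaled over nuclear protein-coding genes. It was 3 with protein-coding transcripts only, 8 at a threshold of 25% above the lowest library (passed by 91.9% of detected genes), and 0 to 1 with each library left out in turn (0 without mouse 703). It stayed at 1 with TPM + 1. Of genes with a count above 0 in every library 59.1% passed, a change of background that leaves the count of scaffold genes as it was by construction. The ratio of the scaffold sum, 1.34 in TPM, was 1.15 with TMM, 1.15 with DESeq2 size factors and 1.14 with rescaled TPM, and on these 3 scales mouse 688 was highest and mouse 698 lowest, in place of mice 703 and 700. It was 1.18 to 1.34 with each library left out (1.18 without mouse 703). The median short form share of Homer1, 56.8%, was 56.9% of expected counts, 56.9% over protein-coding transcripts and 56.6% to 57.1% with each library left out. Taking Homer1-204 alone, an alternative chosen after seeing the data, gave 18.9%, and the background of 690 highly counted genes was also added then. Deposited isoform percentages could give no share. The count of TOP starts stayed at 1 under 4 other definitions. No contrast of the genotypes was fitted. No paired analysis was possible because mouse numbers could not be matched with replicate numbers. Depth limits the rarer Homer1 transcripts, such as Homer1-205 with at most 27.03 expected counts.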
